A study of Mus musculus with 3 samples.

Results

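The definitive endoderm genes described here are 9 named genes: the transcription factors Sox17, Foxa2, Foxa1, Gata6, Gata4, Hhex and Prdm1, the chemokine receptor Cxcr4 and the hormone precursor Trh. They were chosen by name as endoderm genes and looked up by Entrez Gene identifier among the 17209 genes that at least 1 of 3 tables listed. The tables listed 8 of the 9, and 6 of the 9 had a mean level of at least 1 CPM (counts scaled to library size). RNA came from mouse epiblast stem cells (EpiSCs) of strain 129, pluripotent cells that resemble the epiblast after implantation, routinely grown on gelatin in serum with the inhibitors IWR1 and Y27632. The IWR1 library came from cells given 2 µM IWR1 for 12 h, the Y27 library from cells given 0.5 µM Y27 for 12 h, and the NT library from cells from which both had been withdrawn overnight. IWR1 stabilises Axin and so dampens Wnt signalling. Whether the treated cells first went through a withdrawal is not stated. The 0.5 µM dose is as labelled and low for Y27632, and since all cells had been grown with both inhibitors, a difference from NT cannot be told apart from an effect of withdrawal in NT.

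Definitive endoderm is the germ layer that forms the lining of the gut and its organs. It arises from epiblast cells that pass through the anterior primitive streak under Nodal and Wnt signalling, with Eomes, Mixl1 and Foxa2 acting early and Sox17 after them. Most of these factors also work elsewhere: Sox17, Gata4, Gata6, Foxa2 and Hhex mark extraembryonic endoderm, Gata4 and Gata6 the heart, Foxa2 the node and notochord, and Prdm1 the primordial germ cells. In bulk RNA, fewer cells that express a gene and less of its RNA per cell cannot be told apart.

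There was 1 library per group, so differences cannot be checked against replicates and no p-values are given. Estimated counts, called reads here, summed to 5607725 in IWR1, 5459332 in Y27 and 5767550 in NT. An FPKM value, in contrast, is a level per kilobase of transcript. Ranges behind levels and folds are exact 95% intervals for counting error alone. A gene that a table did not list was taken as 0 there, which allows up to 3 reads, or 0.536 CPM in IWR1, 0.538 CPM in Y27 and 0.531 CPM in NT. All 12 epiblast markers were listed in every library, with Pou5f1, the central pluripotency factor, at 982 FPKM in IWR1, 888 FPKM in Y27 and 1070 FPKM in NT.

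The endoderm genes as a set were a very small part of these transcriptomes, and the excess of the IWR1 library over the others lay mostly in a single gene, Trh. Their reads summed to 294 in IWR1 and 181 in Y27, against 215 in NT. Without Trh the sums were 191 reads in IWR1 and 164 in Y27, against 190 in NT, or 34.1 CPM in IWR1 and 29.3 CPM in Y27, against 33.6 CPM in NT. Trh made up 35.0% of these reads in IWR1 and 9.40% in Y27, against 11.6% in NT.

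**Figure D1:**
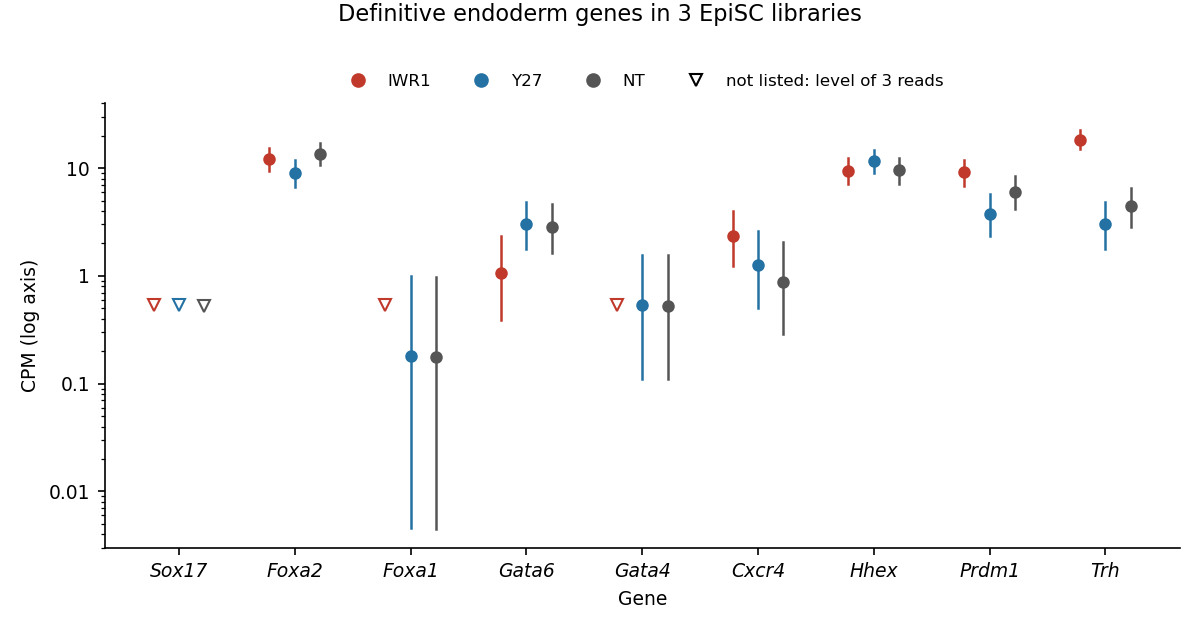
Level of each of the 9 genes in the IWR1, Y27 and NT libraries, in CPM on a log axis; points are levels, lines their exact 95% counting intervals, and open triangles mark a gene that the table did not list, drawn at the level of 3 reads. Trh in IWR1, at 18.4 CPM, stands above its other 2 values, Sox17 has no value in any library, and the intervals of the other 5 measurable genes overlap between IWR1 and NT.

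Per length, Trh was the most abundant of the 9 genes in IWR1, at 13.2 FPKM (10.7 to 15.9), higher than 65.1% of the genes listed there. Foxa2 and Hhex followed at 5.84 FPKM (4.53 to 7.40) and 5.36 FPKM (4.0 to 6.98), then Prdm1 at 1.72 FPKM, Cxcr4 at 1.28 FPKM and Gata6 at 0.33 FPKM. In Y27, Hhex came first at 6.73 FPKM (5.19 to 8.57), ahead of Foxa2 at 4.41 FPKM and Trh at 2.25 FPKM. In NT, Foxa2 came first at 6.45 FPKM (5.09 to 8.06), ahead of Hhex at 5.27 FPKM and Trh at 3.12 FPKM. Neighbours in these orders mostly overlapped in their intervals. The exceptions were Trh over Foxa2 and Hhex over Prdm1 in IWR1, and Trh over Prdm1 in NT. Even the most abundant stood in the middle of the distribution in NT, where Foxa2 exceeded 50.9% of the listed genes.

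Sox17 (Entrez Gene 20671), the HMG-box factor most used to define endoderm, was listed in none of the 3 tables. If the gene was among those counted, its level was at most that of 3 reads in each library. The tables give no gene at 0, so they do not show whether it was. No fold can be given.

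Foxa2 (Entrez Gene 15376), a forkhead factor that opens chromatin in endoderm, had 68 reads in IWR1 and 50 reads in Y27, against 77 reads in NT. These are 12.1 CPM (9.43 to 15.4) in IWR1 and 8.96 CPM (6.65 to 11.8) in Y27, against 13.6 CPM (10.8 to 17.0) in NT. Foxa2 was thus the endoderm factor with the most reads in NT, and Y27 was its lowest library. Its reads were whole numbers assigned over 3 RefSeq transcripts. Foxa1 (Entrez Gene 15375), its close relative, was not listed in IWR1 and had 1 read in Y27 and 1 in NT. Only Foxa2 of this pair was therefore measurable at this depth.

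Gata6 (Entrez Gene 14465), a zinc finger factor of endoderm and heart, had 6 reads in IWR1 and 17 reads in Y27, against 16 reads in NT. These are 1.07 CPM (0.393 to 2.33) in IWR1 and 3.05 CPM (1.77 to 4.88) in Y27, against 2.83 CPM (1.62 to 4.60) in NT. IWR1 was the low library, and its interval overlapped the other 2. Gata4 (Entrez Gene 14463), the related factor, was not listed in IWR1 and had 3 reads in Y27 and 3 in NT. IWR1 was the library with the fewest reads for both GATA factors and for Foxa1, but the counts of Gata4 and Foxa1 lie within what a count of 0 allows, so no fold is given for them.

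Hhex (Entrez Gene 15242), a homeobox factor of anterior endoderm and of the liver and thyroid buds, had 53.0 reads in IWR1 and 64.8 reads in Y27, against 53.7 reads in NT. The 3 levels, 9.48 CPM in IWR1 and 11.6 CPM in Y27 against 9.51 CPM in NT, overlapped throughout. Its counts were partly fractional; how the fractions arose was not tested. Prdm1 (Entrez Gene 12142), a zinc finger repressor, had 51 reads in IWR1 and 21 reads in Y27, against 34 reads in NT. At 9.11 CPM (6.78 to 12.0) in IWR1 and 3.76 CPM (2.33 to 5.75) in Y27, the treated libraries lay on either side of NT at 6.02 CPM (4.17 to 8.41), and their intervals did not overlap each other.

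Cxcr4 (Entrez Gene 12767), the receptor for the chemokine Cxcl12 and a surface marker used to sort endoderm, had 13 reads in IWR1 and 7 reads in Y27, against 5 reads in NT. IWR1 was the high library, and all 3 intervals overlapped. Trh (Entrez Gene 22044), which encodes the precursor of thyrotropin-releasing hormone and is used as a marker of early mouse endoderm, had 103 reads in IWR1 and 17 reads in Y27, against 25 reads in NT. At 18.4 CPM (15.0 to 22.3) in IWR1, Trh lay far above both Y27, at 3.05 CPM (1.77 to 4.88), and NT, at 4.42 CPM (2.86 to 6.53), while Y27 and NT overlapped.

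IWR1 was first compared with NT, which asks how endoderm transcripts differed in cells given the Wnt pathway inhibitor. Trh was 4.16-fold higher in IWR1 (2.67 to 6.72). Prdm1 was at 9.11 CPM in IWR1 against 6.02 CPM in NT, a ratio of 1.51 (0.962 to 2.41), and Cxcr4 was at 2.32 CPM against 0.885 CPM, a ratio of 2.63 (0.878 to 9.41). Foxa2 and Hhex, the factors with the most reads, had ratios of 0.892 (0.634 to 1.25) and 0.997 (0.665 to 1.48). Gata6 had a ratio of 0.379 (0.121 to 1.02), whose upper bound moved to 0.989 with upper quartile scaling.

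On the log2 scale with a pseudocount of 1 CPM, by which low genes appear less different than they are, Trh differed by 1.84 and was alone among the 9 genes in being at least 2-fold apart. The same 2-fold threshold was passed by 4.53% of the 12955 genes compared (mean level of at least 1 CPM), 295 of them higher and 292 lower in IWR1, and by 7.81% of the 5234 genes between 1 and 20 CPM, where all 6 of the measurable endoderm genes lay. These shares leave out genes below a mean of 1 CPM, as 3 of the 9 were. A count of 1 in 6 is too small to set apart from that background. Trh itself ranked 23rd from the highest among the 12955 differences. Of the 6 measurable genes, 1 (Trh again) had a counting interval off a ratio of 1. So did 39.4% of all genes compared and 22.2% of those between 1 and 20 CPM. The median log2 difference of the 6 measurable genes was 0.26, beside 0.00 for all genes compared. Of the 6, 3 were higher and 3 lower in IWR1.

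**Figure D2:**
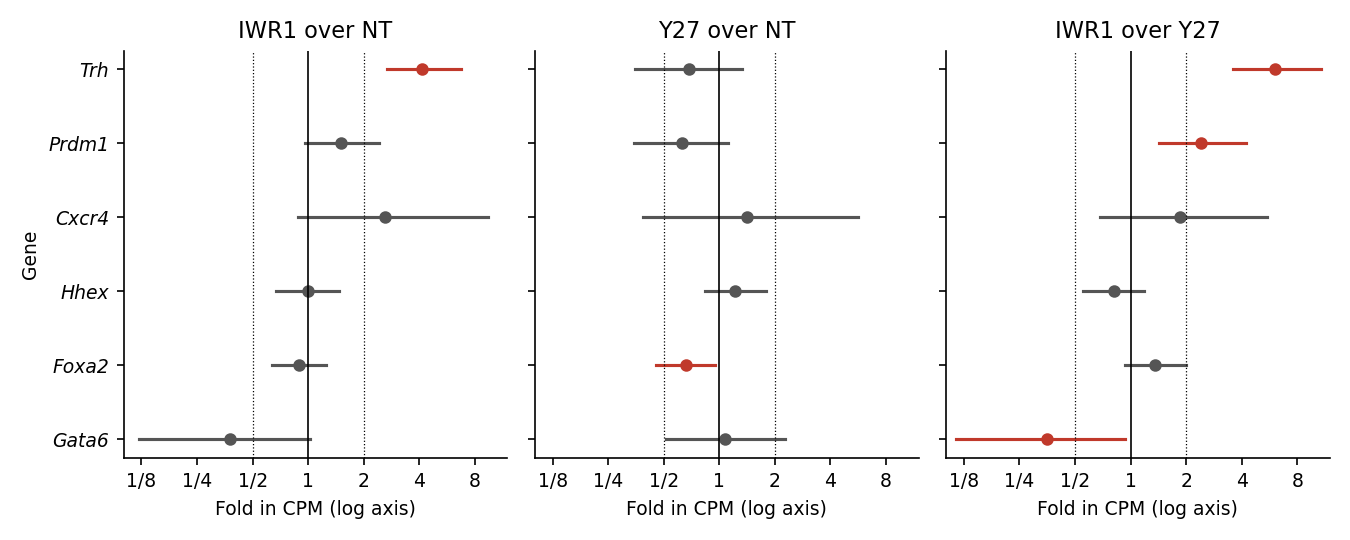
Fold in CPM of the 6 endoderm genes at a mean of 1 CPM or more, on a log axis, for IWR1 over NT, Y27 over NT and IWR1 over Y27; lines are exact 95% counting intervals, red where the interval lies off 1, and dotted lines mark 2-fold. Trh is red in both panels that contain IWR1, at 4.16-fold and 6.04-fold, while Foxa2 is the only red gene in Y27 over NT.

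Depth set what could be seen for the lowest genes. From the 5 reads of Cxcr4 in NT, the interval would have left 1 only at 15 reads or more in IWR1, and 13 were counted. From the 16 reads of Gata6 in NT it would have left 1 at 5 reads or fewer, and 6 were counted. For Gata4, Foxa1 and Cxcr4 even a complete loss of reads in IWR1 or Y27 would not have moved the interval off 1, so lower levels of these genes were not detectable at this depth. For Foxa2, by contrast, 53 reads or fewer or 104 or more would have been enough in IWR1.

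The second comparison, Y27 over NT, asked the same under Y27632. Foxa2 was 1.52-fold lower in Y27 (1.05 to 2.22). Trh and Prdm1 had ratios of 0.689 (0.349 to 1.33) and 0.626 (0.345 to 1.11), and Hhex, Cxcr4 and Gata6 ratios of 1.22 (0.837 to 1.78), 1.42 (0.387 to 5.67) and 1.08 (0.511 to 2.28). None of the 6 measurable genes was at least 2-fold apart. Of all genes compared 6.92% were, and of those between 1 and 20 CPM 9.82%. The interval of 1 of the 6 measurable genes, Foxa2, lay off 1. So did those of 44.8% of all genes compared and 25.0% of the genes between 1 and 20 CPM. The median of the 6 measurable genes was -0.17, with 3 higher and 3 lower in Y27, beside -0.02 for all genes compared. With the trend of the log2 differences on transcript length and GC content removed, the log2 fold of Foxa2 was -0.42 in place of -0.60, and the interval of its ratio became 0.514 to 1.08, which holds 1. The interval of Prdm1 then became 0.292 to 0.937. Removing the trend also took the genes past 2-fold over all genes to 179 higher and 172 lower in Y27, against 723 and 173 without it, and in IWR1 over NT to 148 higher and 285 lower.

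The third comparison set the treated libraries side by side and does not involve NT. They differ in both inhibitors as labelled, so an effect of IWR1 cannot be told apart from one of Y27, nor either from withdrawal. Trh was 6.04-fold higher in IWR1 than in Y27 (3.59 to 10.8), and Prdm1 2.42-fold higher (1.43 to 4.24). Gata6 was 2.84-fold lower (1.07 to 8.80), on 6 reads in IWR1 against 17 reads in Y27. Foxa2 had a ratio of 1.36 (0.927 to 1.99), Cxcr4 of 1.85 (0.687 to 5.48) and Hhex of 0.816 (0.555 to 1.19). Trh and Prdm1 were the 2 of the 6 measurable genes at least 2-fold apart, at log2 differences of 2.26 and 1.09. That threshold was passed by 4.28% of all genes compared and 7.64% of those between 1 and 20 CPM. Prdm1 passed it narrowly, and did not with a pseudocount of 5 CPM or on the deposited FPKM. Trh ranked 9th and Prdm1 138th from the highest among 12955 differences. Intervals lay off 1 for 3 of the 6 measurable genes. They did for 32.4% of all genes compared and 20.6% of those between 1 and 20 CPM. A count over 6 genes is small.

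**Figure D3:**
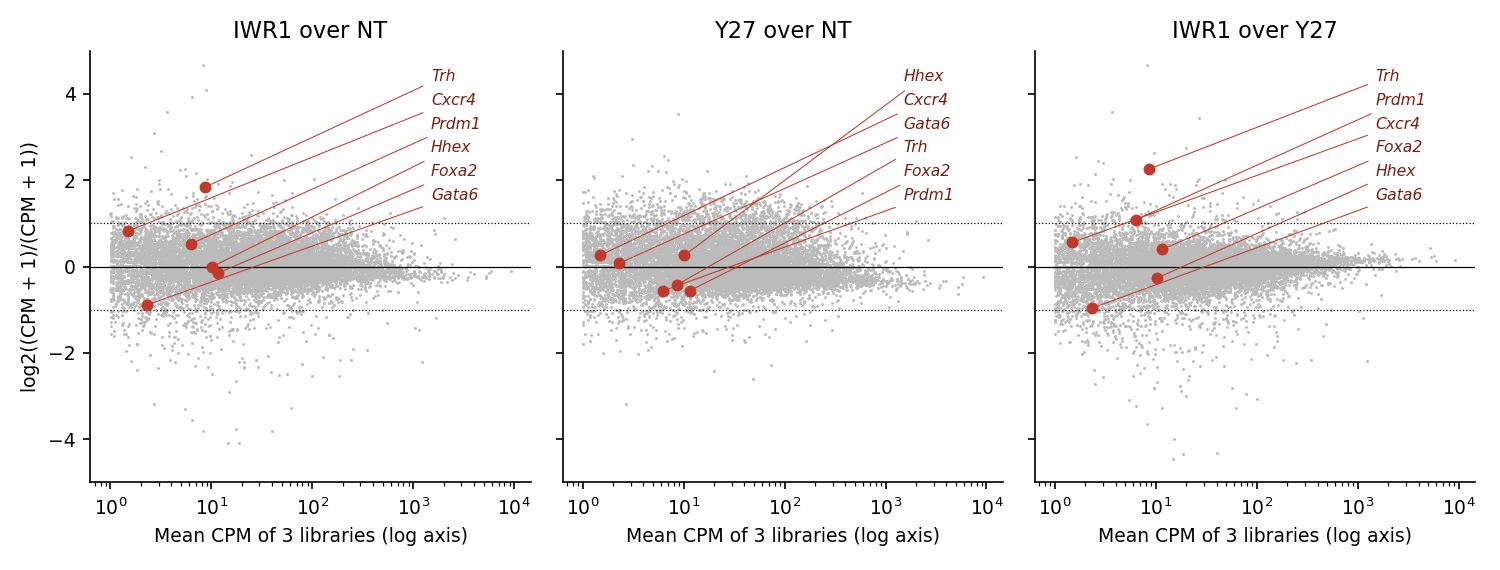
Log2 difference with a pseudocount of 1 CPM against the mean CPM of the 3 libraries (log axis), for the 12955 genes at a mean of 1 CPM or more (grey) and the 6 measurable endoderm genes (red, named); dotted lines mark 2-fold. In IWR1 over NT, Trh at 1.84 lies at the upper edge of the grey cloud while the other 5 lie within it.

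The genes most like Trh over the 3 libraries were looked for by a fixed measure. Among 8483 genes with whole counts and a mean of at least 5 CPM, likeness was measured as the distance between the pairs of log2 differences from NT. The nearest to Trh were Klhl4, at a distance of 0.54, and Slc27a2, at 0.57. Klhl4 was at 28.2 CPM in IWR1 and 8.60 CPM in Y27, against 7.96 CPM in NT. Its Y27 over NT difference of 0.10 lies within the counting interval of Trh there (0.349 to 1.33, as a ratio). No gene lay within 0.1 of Trh, and 4 did of Prdm1, the nearest of which were Tmem141 and Wipf3. Foxa2 and Hhex had 113 and 150 such neighbours, led by Ccdc86 and Wsb2 for Foxa2 and by Mrpl50 and Fbn1 for Hhex. With 3 libraries such likeness is weak.

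Among genes that act upstream of endoderm, some were abundant and others as low as the endoderm genes. Nodal, the ligand that drives endoderm formation, was at 139 CPM in IWR1 and 150 CPM in Y27, against 192 CPM in NT. Eomes, the T-box factor needed for endoderm, was at 93.3 CPM in IWR1 and 204 CPM in Y27, against 162 CPM in NT. Gsc, a homeobox gene of the anterior streak, was at 3.75 CPM in IWR1 and 3.94 CPM in Y27, against 6.90 CPM in NT. In IWR1 over NT, 295 of the 12955 genes compared were at least 2-fold higher and 292 at least 2-fold lower. Of the 12 genes of mesendoderm regulation, none was higher by that much and 2 were lower. Mixl1, a streak homeobox factor, was not listed in IWR1. Its 10.8 CPM in NT was 20.1-fold above the floor of 3 reads in IWR1, without counting error in the NT reads. Lhx1, a LIM homeobox gene, was 2.89-fold lower (1.81 to 4.75). In Y27 over NT, 2 were also at least 2-fold lower, beside 173 of the 12955 genes compared. The 2 were Lefty1 and Lefty2, feedback inhibitors of Nodal with partly fractional counts, at 6.5-fold (4.17 to 11.0) and 3.24-fold (2.05 to 5.10). The list's medians were -0.06 in IWR1 over NT and -0.21 in Y27 over NT.

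Of 25 other genes of definitive endoderm and gut tube, 19 were listed somewhere and 11 had a mean of at least 1 CPM. Hnf4a, Onecut1, Pdx1, Pyy, Nepn and Cldn8 were listed in no table, and Foxa3, the remaining Foxa gene, had 1 read in NT alone. In IWR1 over NT, 1 was at least 2-fold higher and 1 at least 2-fold lower, beside 295 and 292 of the 12955 genes compared. The higher gene was Cer1, whose anterior endoderm product blocks Nodal and BMP ligands. Cer1 had 42.2 reads in IWR1 and 3.11 in Y27 and was not listed in NT. On these partly fractional counts, its IWR1 level was 14.2-fold above the floor of 3 reads in NT, without counting error in the IWR1 reads. The lower gene was Cdx2, a caudal homeobox gene of hindgut and posterior embryo, which was 19.3-fold lower (11.3 to 35.8). None of the 11 was at least 2-fold apart in Y27 over NT, beside 6.92% of the 12955 genes compared. The list's median was 0.22 in IWR1 over NT and 0.00 in Y27 over NT.

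The list of anterior visceral and anterior endoderm genes shares Cer1, Fzd5, Fzd8, Sfrp5, Lhx1 and Lefty1 with the lists above. Of its 10 members, 7 had a mean of at least 1 CPM. In IWR1 over NT 2 of them were at least 2-fold higher, Cer1 and the Wnt antagonist gene Sfrp1. Lhx1 alone was at least 2-fold lower. Of the 12955 genes compared, 295 were higher and 292 lower by that much. Sfrp1 was 2.36-fold higher (1.87 to 2.99), on partly fractional counts. In Y27 over NT, Lefty1 alone was at least 2-fold lower, beside 173 of the 12955 genes compared. The list's median was 0.42 in IWR1 over NT and 0.00 in Y27 over NT. Both are the values of the shared gene Fzd5, which is also the median of the gut tube list in Y27 over NT. Otx2, a homeobox gene that both anterior endoderm and epiblast express, was at 126 CPM in IWR1 and 77.8 CPM in Y27, against 63.0 CPM in NT.

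**Figure D4:**
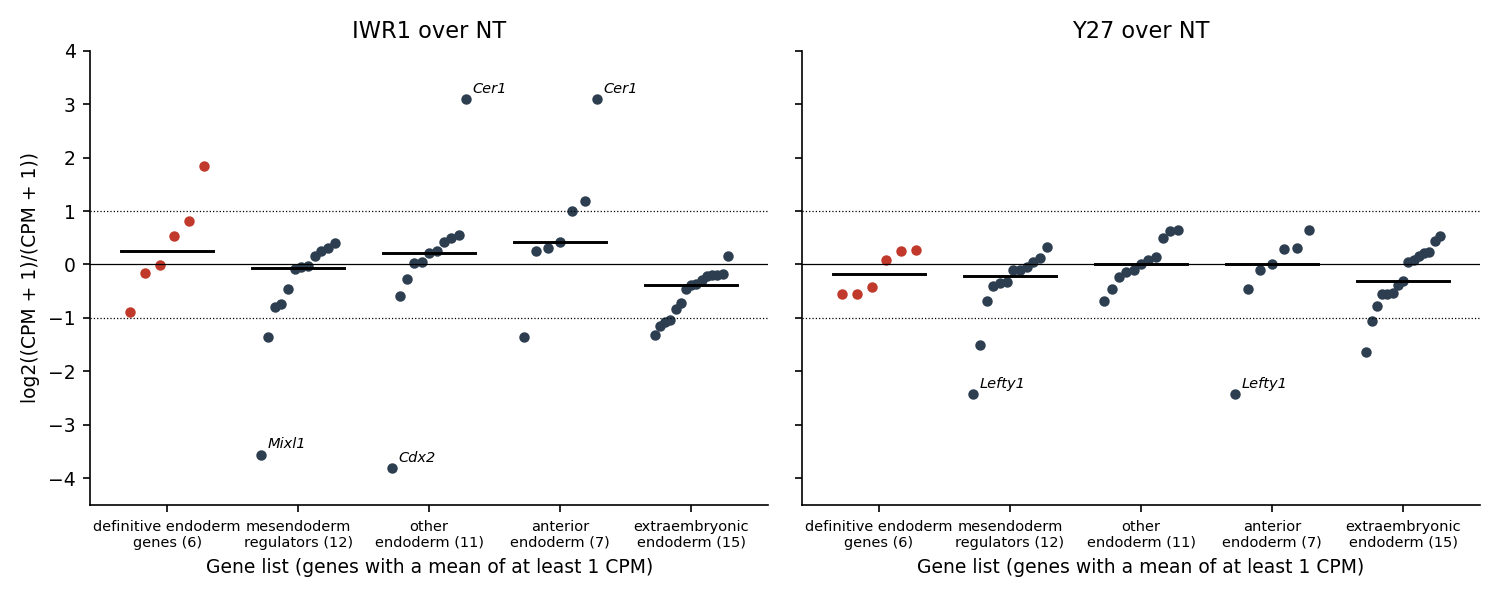
Log2 differences (pseudocount of 1 CPM) of single genes, sorted within each list, for IWR1 over NT and Y27 over NT; bars are medians, dotted lines mark 2-fold, the number of genes at a mean of 1 CPM or more stands in brackets, and genes at least 4-fold apart outside the endoderm genes are named. The 15 extraembryonic endoderm genes lie almost wholly below 0 in IWR1 over NT, with a median of -0.38, while the endoderm genes (red) lie on both sides of 0.

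Extraembryonic endoderm shares Sox17, Gata4, Gata6, Foxa2 and Hhex with definitive endoderm, so its other markers were counted. Of 15 with a mean of at least 1 CPM, 14 were below their NT level in IWR1 and 4 at least 2-fold lower, with a median of -0.38, beside 292 of 12955 genes at least 2-fold lower and a median of 0.00 over all genes compared. The 4 were Pdgfra, a growth factor receptor gene, 2.97-fold lower (1.36 to 7.18), Foxq1, 4.16-fold lower (1.53 to 14.1), the keratin gene Krt19, 2.14-fold lower (1.87 to 2.46), and Apob, a lipoprotein gene. Apob was not listed in IWR1 and had 11 reads in Y27, against 6 reads in NT. It passed 2-fold on the pseudocount scale alone. Against the floor of 3 reads it was 1.98-fold lower, without counting error in the NT reads. In Y27 over NT 2 were at least 2-fold lower, beside 173 of the 12955 genes. The 2 were Krt19 at 3.18-fold (2.71 to 3.73) and Foxq1 at 2.96-fold (1.21 to 8.25). Of the 15, 7 were above and 8 below NT, with a median of -0.30. The summed level of the list was 1838 CPM in IWR1 and 1864 CPM in Y27, against 2251 CPM in NT, most of it from matrix genes such as Sparc and Lamb1 that many cells express. Of the 25 genes of the list, 18 were listed somewhere, and Afp, Ttr, Thbd, Hnf4a, Ihh, Apoa1 and Srgn in no library. Dab2 was at 14.8 CPM in IWR1 and 30.6 CPM in Y27, against 27.2 CPM in NT. Pth1r was at 10.7 CPM in IWR1 and 9.32 CPM in Y27, against 14.2 CPM in NT. Sox7 had 3 reads in IWR1, 6.24 in Y27 and none in NT. The part of such cells in the Gata6 values was not tested.

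The partners of Cxcr4 and Trh were measured too. Cxcl12, the ligand of Cxcr4, was at 31.6 CPM in IWR1 and 82.1 CPM in Y27, against 62.3 CPM in NT, so it was 2.60-fold lower in IWR1 than in Y27 (2.18 to 3.11). Neither Ackr3, its other receptor, nor the hormone receptor genes Trhr and Trhr2 were listed in any table. Cpe and Pam, which encode enzymes that trim and amidate peptide hormones, were at 56.6 and 53.9 CPM in IWR1 and 50.4 and 55.2 CPM in Y27, against 60.7 and 58.4 CPM in NT. Pcsk2, a convertase gene that cleaves hormone precursors, had 18 reads in IWR1 and 6 reads in Y27, against 15 reads in NT, 2.99-fold higher in IWR1 than in Y27 (1.14 to 9.20). Of the 10 partner genes, 5 had a mean of at least 1 CPM and 0 were at least 2-fold apart in either comparison with NT. Of all genes compared, 4.53% were in IWR1 over NT and 6.92% in Y27 over NT.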

How the data were processed

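The data are RNA-seq tables, 1 for each of 3 EpiSC libraries. Per the file headers, each row pairs an Entrez Gene identifier with transcript length, expected count and FPKM. The expected counts the authors deposited are estimated reads per gene, without normalization. Their deposited FPKM values are scaled per kilobase and to library size. When FPKM was recomputed from count, length and total, 93.9%, 93.8% and 94.0% of genes with over 50 reads in IWR1, Y27 and NT came within 2%. The submitters' processing notes name Bowtie 0.12.2 and mm8, the counting tool being not given in the sources used here.

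In all, the tables listed 15720, 15867 and 15623 genes in that order. A gene missing from 1 table was taken as 0 there. Symbols, for 99.7% of identifiers, came from a GRCm38 table, so no coordinates are given. The counts were brought to CPM by TMM factors of 0.998, 1.02 and 0.980, fitted on all genes with edgeR 4.0.16 in R 4.3.3. Expected counts were rounded for exact Poisson intervals of levels and exact conditional binomial intervals of folds. Genes were named if they were among the 9, or up to 4 per list and pair at least 2-fold apart, or had 10 reads or more while missing from a table, or were among the 2 nearest in pattern to an endoderm gene with 30 reads or more. Others named with values were chosen after their values were seen. The 9 genes, the 11 lists beside them, the rule and the settings were chosen with earlier results of these data known. Steps were tested on simulated data. DESeq2 1.42.0 gave an alternative scaling. The rest ran in Python 3.11.15 (scipy 1.17.1, numpy 2.4.6, matplotlib 3.10.9, pandas 2.3.3).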

Additional observations from a re-analysis of the deposited data

How the results depend on the processing

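Under 11 other settings, the number of the 9 genes at least 2-fold apart in Y27 over NT was 0 each time, and Trh passed in IWR1 over NT and in IWR1 over Y27 each time. In IWR1 over NT the count was 3 with a pseudocount of 0.1 CPM and 3 at a threshold of 1.5-fold, against 1 as reported, the added genes being Cxcr4 (higher) and Gata6 (lower). In IWR1 over Y27 it was 1 with a pseudocount of 5 CPM, 1 at a threshold of 3-fold and 1 with FPKM as deposited, against 2, and 3 with a pseudocount of 0.1 CPM and 3 at a threshold of 1.5-fold, which added Gata6 (lower). Lower or higher pseudocounts and thresholds act on low genes and on the limit by construction, and the cause of the difference on FPKM was not tested. The other settings were scaling by library total, DESeq2 size factors or upper quartile, no level filter, a mean of at least 5 CPM, and removal of a cubic trend in log2 length and GC content, the last with GC content for 98.7% of the genes compared. Folds were recomputed only under the other scalings, the deposited FPKM and removal of the trend. All 90 recomputed folds of the 6 measurable genes stayed inside the counting interval of the fold as reported. Those intervals are wide beside the changes in scaling, so this is a weak check. In all, 3 intervals changed sides of 1, those named above for Gata6, Foxa2 and Prdm1. Of 726 recomputed counts of the other lists, 92 moved by more than 1.5 times. No paired analysis was possible because each group has 1 library. Precision is limited by 0 to 103 reads per endoderm gene and library and by the absence of replicates.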

Other observations

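Lists for other tissues that use the same factors gave these values. Of the node and notochord genes, where Foxa2 also acts, 7 had a mean of at least 1 CPM. T, the brachyury gene, was 4.63-fold lower in IWR1 than in NT (4.42 to 4.86) and Nog, the gene for noggin, 5.48-fold lower (3.98 to 7.71), while Foxj1, a factor for motile cilia, was 2.26-fold higher (1.45 to 3.59). Chrd, which encodes the BMP antagonist chordin, was at 9.29 CPM in IWR1 and 4.84 CPM in Y27, against 4.25 CPM in NT. Noto, a homeobox gene of the node, was listed in NT alone, with 2 reads, and Shh with 1.

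Of the cardiac mesoderm genes, where Gata4 and Gata6 also act, 5 had a mean of at least 1 CPM. Mef2c had 11 reads in IWR1 and 9 in Y27, against 2 in NT, and Nkx2-5 was listed in no table. Isl1, a LIM homeobox gene of heart progenitors, was 2.43-fold lower in IWR1 than in Y27 (1.83 to 3.25). Of the germ cell genes, where Prdm1 also acts, 4 had a mean of at least 1 CPM and 0 were at least 2-fold apart in any pair. Of all genes compared, 4.53% were in IWR1 over NT, 6.92% in Y27 over NT and 4.28% in IWR1 over Y27. Tfap2c, a germ cell factor, was at 14.3 CPM in IWR1 and 19.0 CPM in Y27, against 23.7 CPM in NT, and Prdm14, another, had 0, 4 and 5 reads in those libraries. Endothelial and blood genes summed to 16.4 CPM in IWR1 and 14.0 CPM in Y27, against 16.6 CPM in NT, and Cdh5, an endothelial cadherin gene, had 4 reads in IWR1 against 15 in Y27. Fibroblast genes summed to 97.5 CPM in IWR1 and 86.0 CPM in Y27, against 142 CPM in NT, with Pdgfrb 7.02-fold lower in IWR1 (3.72 to 14.6) and Col1a1 2.65-fold lower in Y27 (2.22 to 3.18). Of the 12 epiblast genes, 2 were higher by 2-fold or more in IWR1 over NT, beside 295 of 12955 genes compared. In Y27 over NT 0 were, beside 723 of the 12955. The 2 were Fgf5 at 3.28-fold (2.67 to 4.08) and Utf1 at 2.32-fold (2.10 to 2.57). In IWR1 over NT 9 of the 12 were higher and 3 lower. Their median log2 difference there was 0.78, beside 0.26 for the 6 measurable endoderm genes, of which 3 were higher and 3 lower.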
